A study of Mus musculus with 24 samples.

Results

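The genes described here encode 10 subunits of the Polycomb repressive complexes, taken by their symbols from a table of read counts per gene: Ezh1, Ezh2, Eed, Suz12, Jarid2 and Rbbp4 of PRC2, and Ring1, Rnf2, Bmi1 and Cbx7 of PRC1. They are 10 of the 54532 genes in the table, and all 10 were among the 19667 genes with enough reads to be tested. RNA was sequenced from the striatum of 24 C57BL/6 mice, 1 library per animal, with 6 animals (3 male, 3 female) in each of 4 genotypes. WT animals carried neither allele. TyrobpKO animals lacked Tyrobp, which encodes an adaptor of microglial surface receptors, and they are labelled as a knockout with no cell type or Cre named. Q175 animals were heterozygous for an allele in which a long CAG tract was placed in the endogenous Huntingtin gene (Htt), so that it is expressed from its own locus and models Huntington's disease. Q175_TyrobpKO animals carried the Q175 allele and lacked Tyrobp. Age and litter are not given in the labels. The prefix of the animal number was the same for all 12 animals without Tyrobp and was borne by no other, so what it marks cannot be told apart from Tyrobp genotype. All 6 Q175 animals shared another prefix with WT replicate 3, and the other 5 WT animals had a prefix of their own.

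PRC2 places methyl groups on lysine 27 of histone H3. Ezh1 and Ezh2 are its alternative catalytic subunits, Eed binds the finished mark and stimulates the enzyme, Suz12 holds the core together, Rbbp4 binds histones, and Jarid2 is an accessory subunit that helps the complex find chromatin. PRC1 places ubiquitin on histone H2A through Ring1 or Rnf2 (also called Ring1b), in a dimer with a PCGF protein such as Bmi1, and a CBX protein such as Cbx7 lets canonical PRC1 bind the methyl mark left by PRC2. Ezh2 is known as the form of dividing and developing cells and Ezh1 as that of cells that no longer divide. In striatal projection neurons, PRC2 is known for keeping genes of other lineages silent in the adult.

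Libraries held 25.5 to 34.6 M counts (M, megacounts). Tyrobp followed the labels: it was 0.214 to 0.448 CPM (counts scaled to a megacount of library, with TMM factors) in the 12 libraries labelled as lacking it and 5.69 to 11.8 CPM in the other 12. Htt was lower with the Q175 allele, at 137 to 178 CPM in the 12 carriers and 188 to 236 CPM in the 12 others. The labelled tissue carried the markers of striatal projection neurons, none of which was at 0, and their summed level was lower in carriers of the Q175 allele: 9018 to 14245 CPM in WT against 6104 to 8388 in Q175, and 8419 to 13786 in TyrobpKO against 5337 to 8470 in Q175_TyrobpKO. Of these 15 markers, 13 fell in Q175 against WT, beside 5.47% of all genes tested, while 7 did so between Q175_TyrobpKO and TyrobpKO, beside 3.08%; the difference between these effects was not tested. Summed microglial markers (12 genes) overlapped between WT (415 to 505 CPM) and Q175 (421 to 524 CPM). Without Tyrobp they were 351 to 485 CPM in TyrobpKO and 378 to 458 CPM in Q175_TyrobpKO. Their medians there were 428 and 392 CPM, beside 472 in WT and 492 in Q175. Summed markers of cortical excitatory neurons (10 genes) ranged widely: 78.1 to 769 CPM in WT, 466 to 1020 in TyrobpKO, 79.5 to 840 in Q175 and 66.3 to 959 in Q175_TyrobpKO. Summed astrocyte markers (10 genes) were lower in carriers without overlap, at 4503 to 5020 CPM in WT against 3755 to 4442 in Q175, and 4721 to 5175 in TyrobpKO against 3881 to 4287 in Q175_TyrobpKO. Summed endothelial and pericyte markers (10 genes) were 352 to 384 CPM in WT against 310 to 359 in Q175, and 337 to 402 in TyrobpKO against 285 to 364 in Q175_TyrobpKO. Choroid plexus and ependymal markers (10 genes) summed to 4150 CPM in Q175 replicate 3, against 47.4 CPM in the lowest Q175 library and 92.1 CPM in the highest WT library. They were also high in Q175 replicate 5 (489 CPM) and in Q175_TyrobpKO replicates 2 (218 CPM), 4 (585 CPM) and 6 (607 CPM), and at most 148 CPM in every other library. In bulk tissue, fewer cells of a type and less RNA per cell cannot be told apart, and the part of cell makeup in the results below was not tested. Because nothing in the labels ties the animals to separate litters, p-values measure the spread between these animals.

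The 10 genes lie on 9 chromosomes, and all positions are on GRCm38, counted from 1 as in the deposited table. On the scale of CPM per kilobase of exon, which allows levels of different genes to be compared, Bmi1 was the highest of the 10 at 17.3 ± 1.64 (SD, n = 24 libraries), and its lowest library (14.5) lay above the highest library of every other subunit. Rbbp4 (11.8 ± 0.472), Cbx7 (11.7 ± 0.915), Ezh1 (11.1 ± 0.488) and Suz12 (10.5 ± 0.825) followed, each overlapping the next. Ring1 (7.73 ± 0.815), Rnf2 (6.66 ± 0.535), Jarid2 (5.31 ± 0.392) and Eed (4.04 ± 0.430) came below them, again each overlapping the next. Ezh2 was the lowest at 1.496 ± 0.203, and its highest library (1.86) lay below the lowest library of Eed (3.41). These values describe the order of RNA levels and were not tested.

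**Figure D1:**
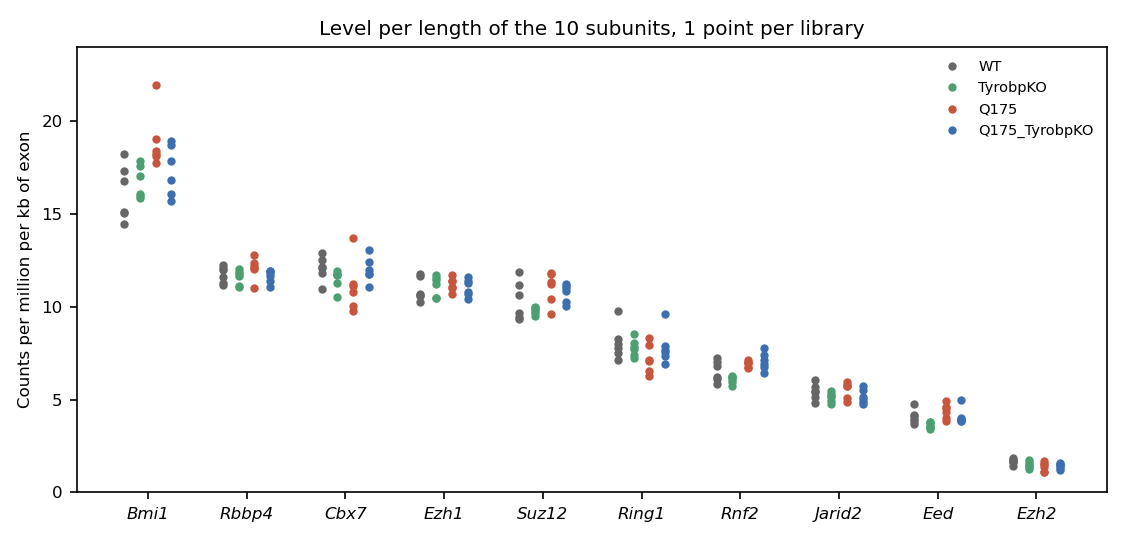
Level of the 10 Polycomb subunits in CPM per kilobase of exon (y axis), 1 point per library, with the 4 genotypes in different colours and the genes ordered by their mean over 24 libraries. Bmi1 stands above and Ezh2 below the other 8 genes, whose neighbours overlap.

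The members of each pair of alternative catalytic subunits were also compared per length. The ratio of Ezh2 to Ezh1 was 0.154 ± 0.0202 (SD, n = 6) in WT and 0.135 ± 0.0200 in TyrobpKO, and with the Q175 allele it was 0.124 ± 0.0212 (Q175) and 0.129 ± 0.0154 (Q175_TyrobpKO). Over all 24 libraries it ran from 0.0948 to 0.181, so in every library Ezh1 was the more abundant RNA of the pair. The ratio of Rnf2 to Ring1 was closer to equality, at 0.823 ± 0.139 in WT and 0.785 ± 0.0704 in TyrobpKO, and 0.971 ± 0.107 (Q175) and 0.915 ± 0.133 (Q175_TyrobpKO) with the allele. The ratios are given as a description, and the genotypes overlapped in both.

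**Figure D2:**
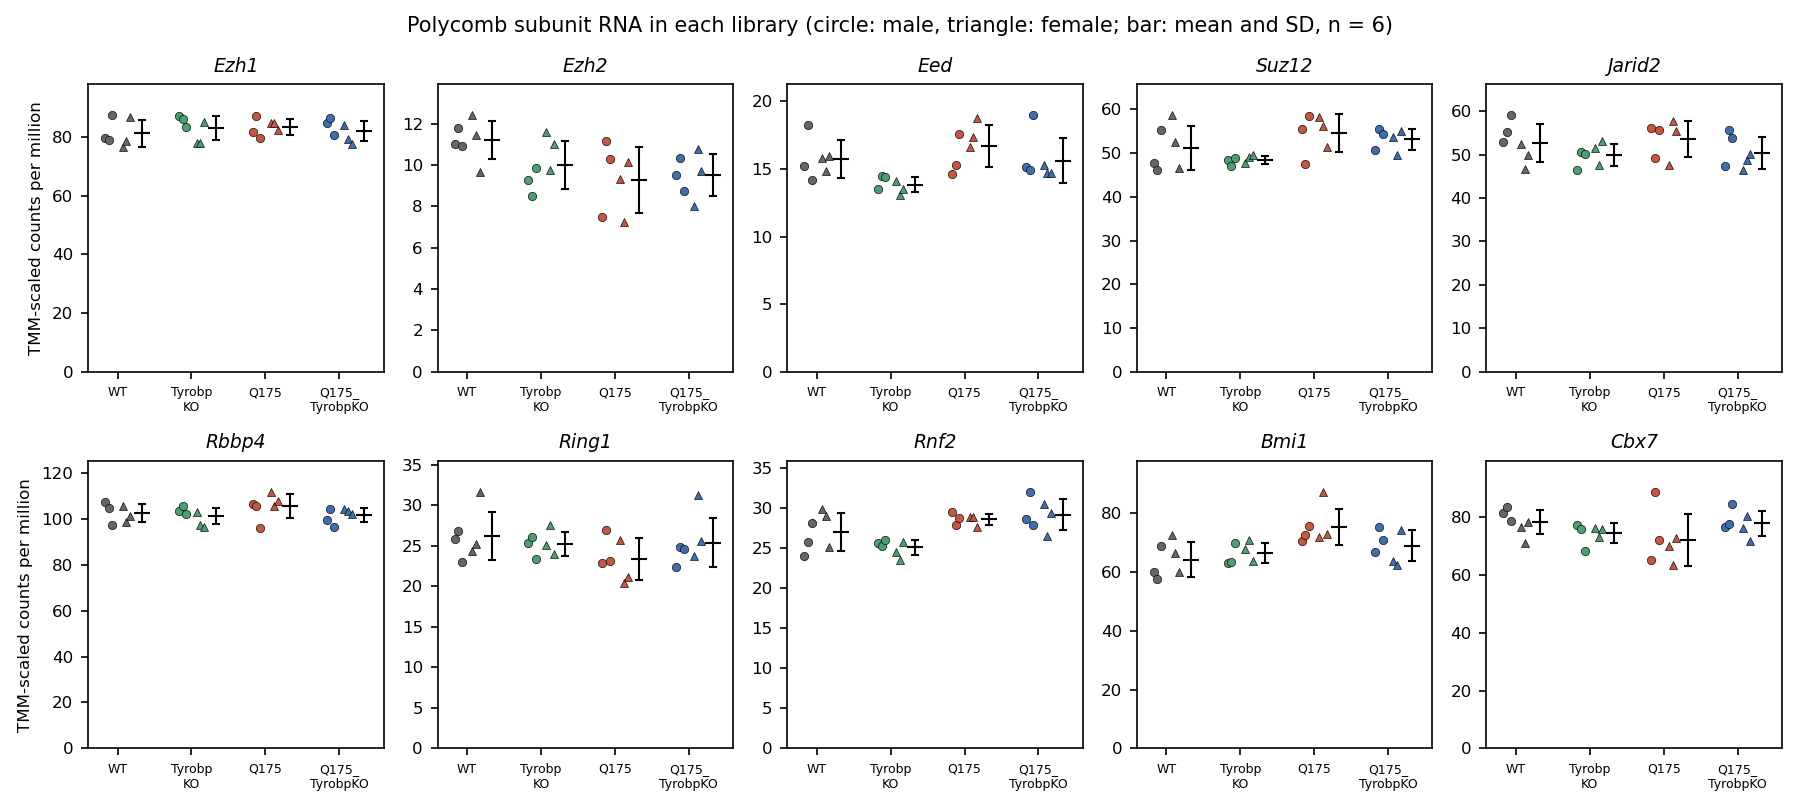
TMM-scaled CPM (y axis, from 0) of each subunit in each library by genotype (x axis), with circles for males, triangles for females and bars for the mean and SD of 6 libraries. Rnf2 in TyrobpKO (highest 26.0 CPM) lies below Rnf2 in Q175_TyrobpKO (lowest 26.6 CPM), and most other subunits overlap between genotypes.

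The first comparison, Q175 against WT, asked what the Q175 allele changed where Tyrobp was present. Among the 10 subunits only Bmi1 was called as changed, and its RNA was 1.17-fold higher in Q175. A gene was called as changed at an adjusted p under 0.05 in edgeR's quasi-likelihood test, with Benjamini-Hochberg adjustment over 19667 genes. By that rule 1 of 10 subunits was called and it was higher, while 9.63% of all genes tested were called (4.15% higher and 5.47% lower). The subunits' count was therefore near the background. Their median log2 fold change was 0.040, beside 0.0073 for all genes tested, and 7 of 10 estimates were above 0.

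Bmi1 (ENSMUSG00000026739, chr2:18677018-18686629, plus strand) encodes a RING-finger partner of Ring1 and Rnf2 and is known as a repressor of the Cdkn2a locus. Its level was 60.1, 57.5, 68.8, 72.4, 66.6 and 59.8 CPM in WT replicates 1 to 6. In Q175 replicates 1 to 6 it was 70.6, 72.4, 75.7, 72.0, 87.3 and 73.0 CPM. The groups overlapped through WT replicate 4, and Q175 replicate 5 was the highest of all 24 libraries. Group means were 64.2 ± 5.91 CPM (SD, n = 6) in WT and 75.2 ± 6.16 CPM in Q175. The log2 fold change was 0.23 ± 0.064 (SE, 95% interval 0.096 to 0.36, edgeR adjusted p = 0.0213). The call was lost when the fit held the 12 libraries of these genotypes alone (0.22, edgeR adjusted p = 0.0550). It was also lost without WT replicate 1 (0.21, edgeR adjusted p = 0.0579), WT replicate 2 (0.20, adjusted p = 0.0642), WT replicate 6 (0.21, adjusted p = 0.0555) or Q175 replicate 5 (0.18, adjusted p = 0.0727). The call stood without Q175 replicate 3, which had the highest choroid plexus markers, and was lost without replicate 5, which had the second highest in that group; their part in the result was not tested.

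The stretch of 250 bases before RefSeq's start is printed for Bmi1 and for Rnf2, the other subunit that was called. For Bmi1 the stretch adjoins the deposited position of the gene. For Rnf2 RefSeq's start lies upstream of that position, which ends at 151500955, so the stretch does not adjoin it. The sequences are RefSeq's on GRCm38.p6, read 5′ to 3′ on the strand of the gene, from chr2:18676768-18677017 (plus) for Bmi1 and chr1:151500992-151501241 (minus) for Rnf2. Capitals mark matches on either strand to the E-box CACGTG, the GC box GGGCGG or the E2F motifs TTTCCCGC and TTTGGCGC.
Bmi1: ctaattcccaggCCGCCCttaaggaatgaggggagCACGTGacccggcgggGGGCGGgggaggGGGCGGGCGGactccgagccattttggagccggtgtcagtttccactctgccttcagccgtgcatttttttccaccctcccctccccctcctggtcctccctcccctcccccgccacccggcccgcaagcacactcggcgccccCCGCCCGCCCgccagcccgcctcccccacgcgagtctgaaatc
Rnf2: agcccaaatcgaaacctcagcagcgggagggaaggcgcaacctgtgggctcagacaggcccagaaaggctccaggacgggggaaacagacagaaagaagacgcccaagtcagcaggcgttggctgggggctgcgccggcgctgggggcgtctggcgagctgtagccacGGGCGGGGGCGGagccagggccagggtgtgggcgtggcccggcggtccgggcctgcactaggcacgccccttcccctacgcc
The Bmi1 stretch held 1 E-box, 6 GC boxes and 21 CpG dinucleotides, and the Rnf2 stretch held 2 GC boxes and 20 CpG. Matches overlap where capitals run on. Of 32851 RefSeq promoters of the same length, 6.02% held the E-box, 32.7% the GC box and 1.30% an E2F motif, and the median CpG count was 6. All 10 subunits had an entry (11 promoters in all), with 12 to 37 CpG, and 8 of the 11 held a GC box, 2 an E-box (Bmi1 and Rbbp4) and 1 an E2F motif (Suz12). A match is a description of the letters and no evidence of binding.

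The PRC2 subunits did not pass the test in Q175 against WT. Ezh2 (ENSMUSG00000029687, chr6:47530139-47595341, minus strand), a methyltransferase, had the largest estimate among them. It was 9.67, 11.2 and 12.4 CPM (lowest, median and highest of 6) in WT and 7.22, 9.73 and 11.1 CPM in Q175, so the groups overlapped. Its log2 fold change was -0.27 ± 0.11 (SE, 95% interval -0.49 to -0.053, edgeR adjusted p = 0.112). With the summed cortical markers as a covariate, an alternative chosen after seeing the data, Ezh2 was called at -0.32 (edgeR adjusted p = 0.0325). Those markers ranged from 78.1 to 769 CPM within WT and from 79.5 to 840 CPM within Q175. Ezh2 had few reads, 1866 over the 6 WT libraries and 1574 over the 6 Q175 libraries.

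Ezh1 (ENSMUSG00000006920, chr11:101191115-101226463, minus strand), the other methyltransferase, had a log2 fold change of 0.038 with a 95% interval of -0.057 to 0.13. Rbbp4 (ENSMUSG00000057236, chr4:129307100-129335370, minus strand), the histone-binding subunit, had a similarly narrow interval, -0.048 to 0.13 around 0.043. Both intervals end below the estimate of Bmi1. Eed (ENSMUSG00000030619, chr7:89954654-89980983, minus strand) had a log2 fold change of 0.09 ± 0.078 (SE). Suz12 (ENSMUSG00000017548, chr11:79993106-80034123, plus strand) had 0.09 ± 0.060, and Jarid2 (ENSMUSG00000038518, chr13:44729474-44921643, plus strand) had 0.03 ± 0.061. None of these 3 was called, with edgeR adjusted p of 0.386 for Suz12, 0.562 for Eed and 0.843 for Jarid2.

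Among the other PRC1 subunits, the estimates of Ring1 and Cbx7 were below 0 and that of Rnf2 was above it, and none was called. Ring1 (ENSMUSG00000024325, chr17:34020792-34024680, minus strand), a ubiquitin ligase, was 23.1, 25.6 and 31.7 CPM (lowest, median, highest) in WT and 20.4, 23.0 and 26.9 CPM in Q175. Its log2 fold change was -0.16 (95% interval -0.33 to 0.0083, edgeR adjusted p = 0.250). Cbx7 (ENSMUSG00000053411, chr15:79915807-79971119, minus strand), the reader of the methyl mark, was 71.2, 78.6 and 83.5 CPM in WT and 63.3, 71.1 and 88.9 CPM in Q175. Its log2 fold change was -0.12 (95% interval -0.25 to 0.0051, edgeR adjusted p = 0.245). The highest of these values, Q175 replicate 2, stood apart from the other 5 Q175 libraries, and in the fit without that library Cbx7 was called lower (-0.18, edgeR adjusted p = 0.0310). Rnf2 was 24.1, 26.97 and 29.8 CPM in WT and 27.6, 28.8 and 29.5 CPM in Q175, with a log2 fold change of 0.08 (95% interval -0.040 to 0.20).

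The same allele was then compared in the absence of Tyrobp, in Q175_TyrobpKO against TyrobpKO. Here Rnf2 rose 1.16-fold and no other subunit was called. The count was 1 of 10 subunits, beside 5.86% of all genes tested (2.78% higher and 3.08% lower). The subunits' median log2 fold change was 0.033, beside -0.0019 for all genes tested, and 8 of 10 estimates were above 0.

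Rnf2 (ENSMUSG00000026484, chr1:151458004-151500955, minus strand) encodes the main ubiquitin ligase of PRC1 in many tissues. Its level was 25.6, 25.3, 26.0, 24.5, 23.6 and 25.8 CPM in TyrobpKO replicates 1 to 6. In Q175_TyrobpKO replicates 1 to 6 it was 28.6, 32.1, 27.9, 30.5, 26.6 and 29.4 CPM. The groups did not overlap, although the highest TyrobpKO library and the lowest Q175_TyrobpKO library, replicate 5, were less than 1 CPM apart. The log2 fold change was 0.22 ± 0.059 (SE, 95% interval 0.094 to 0.34, edgeR adjusted p = 0.0274). The call was lost without TyrobpKO replicate 4 (0.21, edgeR adjusted p = 0.0564) or 5 (0.21, adjusted p = 0.0664), and without Q175_TyrobpKO replicate 2 (0.19, adjusted p = 0.0823), 4 (0.20, adjusted p = 0.0702) or 6 (0.21, adjusted p = 0.0517). Those 3 Q175_TyrobpKO libraries were the ones with raised choroid plexus markers, whose part in the result was not tested. It was also lost with no filter on low counts (0.21, edgeR adjusted p = 0.104). Rnf2 shares 158 exonic bases (3.83% of its exons) with Trmt1l on the opposite strand, and whether counting used strand is not given in the sources used here. Trmt1l itself was not called (log2 fold change -0.023, edgeR adjusted p = 0.903).

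Eed and Suz12, the partners of the PRC2 enzyme, had log2 fold changes of 0.17 ± 0.079 and 0.13 ± 0.060 (SE), each with an edgeR adjusted p of 0.226. Suz12 was at most 49.5 CPM in TyrobpKO and at least 49.6 CPM in Q175_TyrobpKO, and Eed at most 14.5 and at least 14.7 CPM. These margins are narrow. The share of all genes tested whose groups did not overlap was not counted, so such gaps, that of Rnf2 included, are only a description. Eed shares 261 exonic bases (6.82% of its exons) with an opposite-strand gene. Bmi1 had a log2 fold change of 0.05 (95% interval -0.078 to 0.18, edgeR adjusted p = 0.727) and was 63.0 to 70.9 CPM in TyrobpKO and 62.5 to 75.2 CPM in Q175_TyrobpKO. Ezh2 had -0.07 (95% interval -0.29 to 0.15) and Ezh1 had -0.014 (95% interval -0.11 to 0.081).

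**Figure D3:**
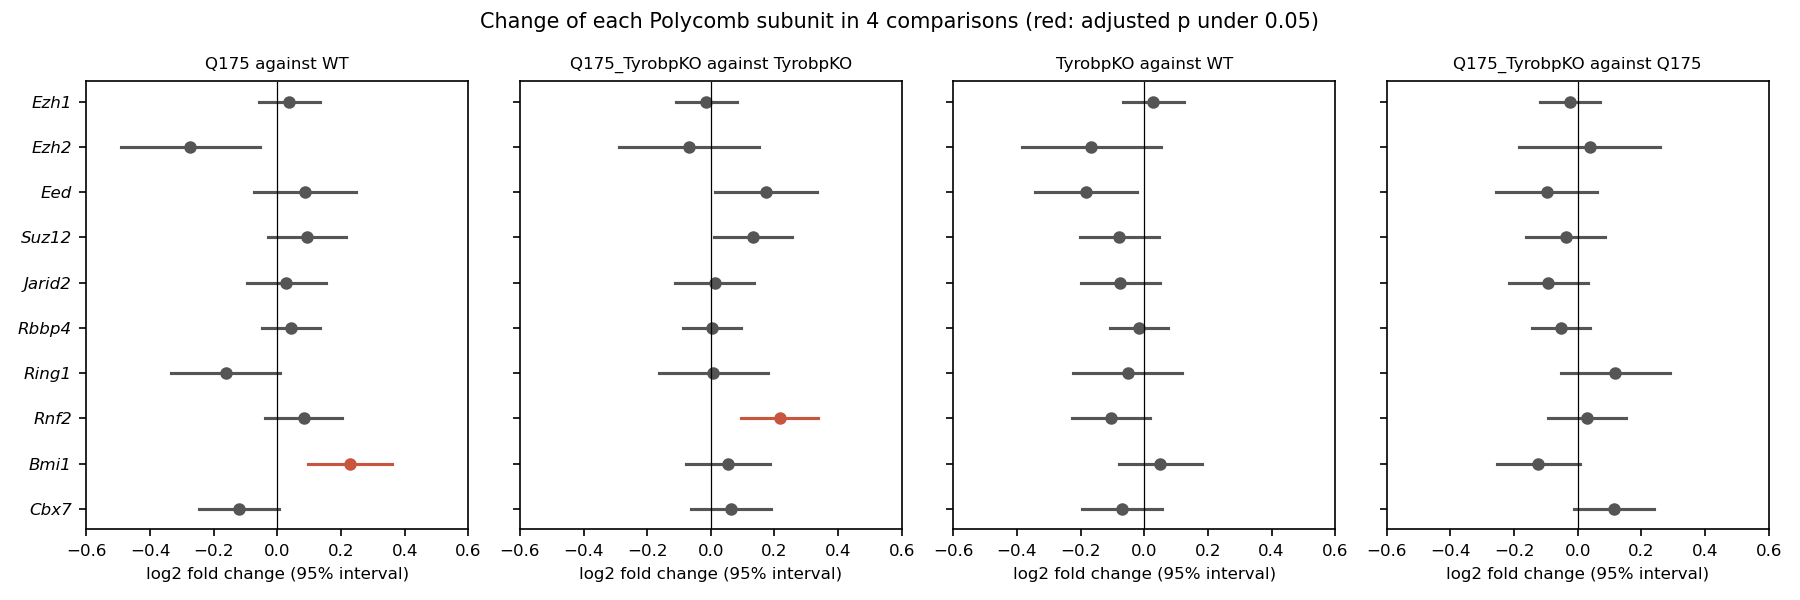
Log2 fold change of each subunit with its 95% interval (x axis) in 4 comparisons, red where the edgeR adjusted p was under 0.05. Only Bmi1 in Q175 against WT and Rnf2 in Q175_TyrobpKO against TyrobpKO are red, and no interval reaches beyond a change of 0.5 in either direction.

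That Bmi1 was called only with Tyrobp present and Rnf2 only in its absence does not show that the genotypes differed. The difference itself, the interaction of the Q175 allele and Tyrobp genotype, was -0.17 ± 0.090 (log2, SE) for Bmi1, with a 95% interval of -0.36 to 0.012 (edgeR adjusted p = 0.999). For Rnf2 it was 0.13 ± 0.084 (95% interval -0.039 to 0.31, edgeR adjusted p = 0.999). Cbx7, whose unadjusted p was the smallest of the 10, had an interaction of 0.18 ± 0.087 (edgeR adjusted p = 0.999). No gene of the 19667 was called in this contrast by edgeR (707 had an unadjusted p under 0.05), DESeq2 called 2 and limma-voom 0. Averaged over the Tyrobp genotypes, an effect computed after seeing the data, the Q175 allele was associated with higher RNA of both Rnf2 (0.15 ± 0.042, edgeR adjusted p = 0.0128) and Bmi1 (0.14 ± 0.045, edgeR adjusted p = 0.0297). In that contrast 2 of 10 subunits were called, beside 18% of all genes tested (8.85% higher, 9.17% lower). Q175_TyrobpKO was also compared with WT, where none of the 10 subunits was called (smallest edgeR adjusted p = 0.186) beside 9.44% of all genes (3.9% higher, 5.54% lower). The comparisons share libraries, so their values are not independent of each other.

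Loss of Tyrobp was not accompanied by a called change in any subunit. In TyrobpKO against WT, edgeR called 0 of 10 subunits beside 0.117% of all genes tested (0.0458% higher, 0.0712% lower). Of the 10, 2 had an estimate above 0 and 1 an unadjusted p under 0.05, and 1269 of all genes had such a p. The smallest p was that of Eed (log2 fold change -0.18, edgeR adjusted p = 0.749), which was 14.2 to 18.3 CPM in WT and 13.1 to 14.5 CPM in TyrobpKO. Rnf2 had an estimate of -0.10 (95% interval -0.23 to 0.018) and Bmi1 one of 0.050 (95% interval -0.081 to 0.18). In Q175_TyrobpKO against Q175, edgeR called 0 of 10 beside 0.158% of all genes (0.0458% higher, 0.112% lower), where 1187 genes had an unadjusted p under 0.05. The estimates there ran from -0.12 for Bmi1 to 0.12 for Ring1, and the smallest adjusted p was 0.830. The widest 95% interval was that of Ezh2 in both contrasts, -0.39 to 0.053 in the first and -0.18 to 0.26 in the second.

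Sex made no called difference to any subunit. Estimates of females against males lay between -0.069 (Cbx7) and 0.047 (Ring1) on the log2 scale, and 0 of 10 were called by edgeR beside 0.0814% of all genes tested (0.0458% higher, 0.0356% lower). Neither the effect of the Q175 allele nor that of the deletion of Tyrobp differed between the sexes at the threshold for any of the 10, and edgeR called no gene at all for either difference. The tests had 747 genes with an unadjusted p under 0.05 for the Q175 allele and 1558 for the deletion. DESeq2 called 0 and 33 genes for them, and limma-voom called none for either. Among the enzymes that remove the mark of PRC2, the demethylase Kdm6a, which is X-linked, was higher in females (56.7 to 77.2 CPM) than in males (39.0 to 46.4 CPM). Its log2 fold change was 0.61 ± 0.049 (SE, edgeR adjusted p = 2.15e-09). Its Y-linked relative Uty was 12.6 to 30.4 CPM in males and at most 0.0368 CPM in females.

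Larger fold changes were found among genes of the same complexes that are not among the 10. Of 10 other canonical PRC1 subunits described here, 1 rose and 1 fell in Q175 against WT, and 1 rose where Tyrobp was missing, with list medians of 0.064 and 0.099 on the log2 scale. Over all genes tested, 4.15% rose and 5.47% fell in the first comparison and 2.78% rose and 3.08% fell in the second. The gene that rose in both was Cbx8 (chr11:119036305-119040969, minus strand), which encodes an alternative to Cbx7 as a reader of the methyl mark. Cbx2, another such reader, lies beside it on the same chromosome (chr11:119022962-119031270, plus strand).

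Cbx8 was 6.18, 8.66 and 10.4 CPM (lowest, median, highest) in WT and 7.58, 8.36 and 10.2 CPM in TyrobpKO. With the allele it was 11.7, 16.4 and 21.2 CPM in Q175 and 11.02, 17.5 and 20.1 CPM in Q175_TyrobpKO. Every one of the 12 carriers lay above every one of the 12 other libraries. The log2 fold changes were 0.93 ± 0.14 (SE, edgeR adjusted p = 5.96e-05) with Tyrobp and 0.99 ± 0.14 (edgeR adjusted p = 5.52e-05) without it. Both calls stood in all 24 fits that left out a single library. Cbx2, between 3.80 and 6.90 CPM in all libraries, was not called (0.11 and 0.17 on the log2 scale).

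The 250 bases before RefSeq's start of Cbx8 are shown beside those of Bmi1 and Rnf2, because this PRC1 gene had a larger change. RefSeq's start lies inside the deposited position of the gene (which ends at 119040969), so the last bases of the stretch lie within that position. The printed bases are RefSeq's on GRCm38.p6, at chr11:119040914-119041163 on the minus strand, with the same marks in capitals.
Cbx8: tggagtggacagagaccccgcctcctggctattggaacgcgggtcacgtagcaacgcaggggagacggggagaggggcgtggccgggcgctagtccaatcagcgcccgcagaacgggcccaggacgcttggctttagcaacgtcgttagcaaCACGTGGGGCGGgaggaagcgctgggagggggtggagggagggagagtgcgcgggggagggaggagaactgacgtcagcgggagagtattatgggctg
This stretch held 22 CpG, 1 E-box and 1 GC box, which lie side by side in the capitals.

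Cbx6, another reader and the gene of this list with the most counts, fell in Q175 against WT, from 350, 387 and 452 CPM (lowest, median, highest) to 305, 345 and 380 CPM. Its log2 fold change was -0.19 ± 0.060 (SE, edgeR adjusted p = 0.0459), and the call stood in 5 of the 24 fits that left out a single library (adjusted p from 0.0265 to 0.169). Without Tyrobp its log2 fold change was 0.0071 (edgeR adjusted p = 0.970). Cbx6 overlaps the gene Npcd on the same strand, so its reads may be shared. Scmh1, with the third smallest p of this list in Q175 against WT, had a log2 fold change of -0.20 ± 0.070 and was not called (edgeR adjusted p = 0.0704), but was with the cortical marker covariate (-0.22, edgeR adjusted p = 0.0138).

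**Figure D4:**
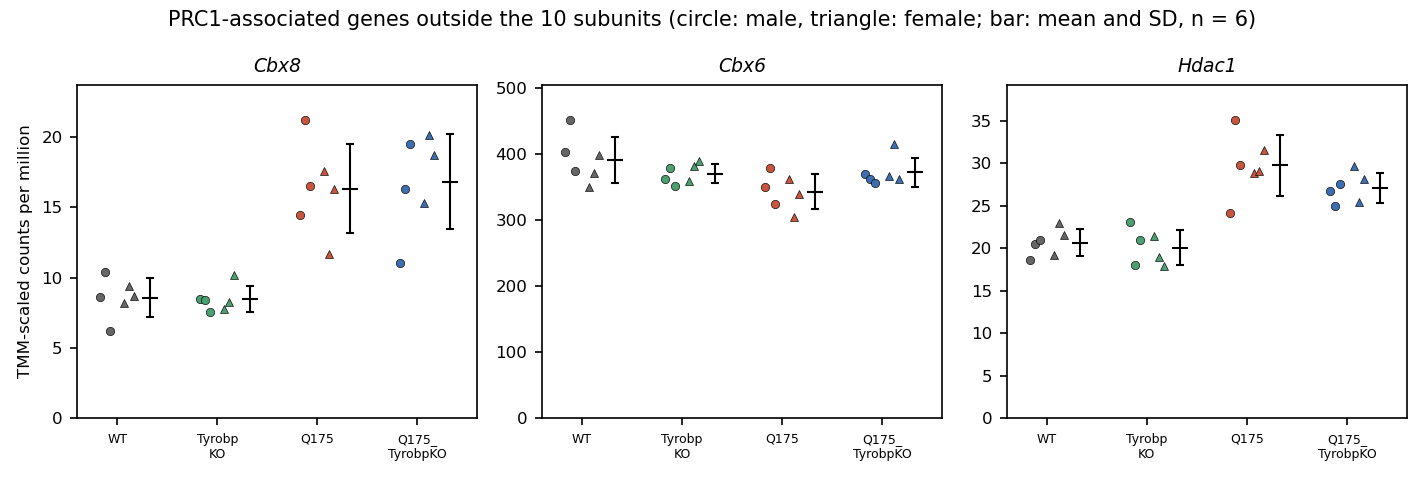
TMM-scaled CPM (y axis, from 0) in each library by genotype (x axis) for Cbx8, Cbx6 and Hdac1, with circles for males, triangles for females and bars for the mean and SD of 6 libraries. For Cbx8 and Hdac1 the 12 carriers of the Q175 allele lie above the 12 other libraries, whereas Cbx6 overlaps between genotypes.

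Of 26 subunits of variant PRC1, 1 rose in Q175 against WT, 3 rose with the allele where Tyrobp was missing, and none fell in either, beside 4.15% and 2.78% higher over all genes. Hdac1, a histone deacetylase found in several complexes, rose in both. It was 18.6 to 23.0 CPM in WT and 17.9 to 23.0 in TyrobpKO, against 24.1 to 35.04 in Q175 and 24.9 to 29.7 in Q175_TyrobpKO, so that carriers and others did not overlap. Its log2 fold changes were 0.53 ± 0.080 (edgeR adjusted p = 5.47e-05) and 0.43 ± 0.080 (edgeR adjusted p = 0.00115). Wdr5, a scaffold shared with the H3K4 methyltransferases, rose in the second comparison (0.21, edgeR adjusted p = 0.0294, called in 18 of the 24 fits that left out a library). In Q175 against WT its estimate was -0.054 (edgeR adjusted p = 0.649). L3mbtl2, an MBT-domain protein named here after its value was seen, also rose in the second comparison (0.20, edgeR adjusted p = 0.0465). Its estimate in Q175 against WT was 0.080 (edgeR adjusted p = 0.470). Pcgf1 and Pcgf6, which take the place of Bmi1 in variant complexes, had the next smallest p in Q175 against WT and were not called.

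Of 8 other PRC2 subunits tested (9 listed), none was called in Q175 against WT and 1 rose in Q175_TyrobpKO against TyrobpKO, beside 9.63% and 5.86% of all genes called. That gene was Phf1, whose protein links PRC2 to chromatin, at 32.1 to 39.4 CPM in TyrobpKO and 40.7 to 46.9 CPM in Q175_TyrobpKO (0.29 ± 0.078, edgeR adjusted p = 0.0222, called in 20 of the 24 fits that left out a library). In Q175 against WT it had 0.14 ± 0.078 (edgeR adjusted p = 0.291). Epop, a PRC2 accessory gene, had a large but uncertain estimate in Q175 against WT, -0.78 ± 0.42 (edgeR adjusted p = 0.279). It ranged from 10.3 to 34.97 CPM within WT and from 5.49 to 25.6 CPM within Q175. With the cortical marker sum as a covariate, chosen after seeing the data, it was called (-0.60, edgeR adjusted p = 0.000233). Aebp2, with the third smallest p of this list, was not called.

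Genes whose products oppose Polycomb had counts near the share of all genes called (9.63% and 5.86%). Of 14 genes for H3K27 demethylases and the H2A deubiquitinase PR-DUB, 1 rose in Q175 against WT: Asxl3, a PR-DUB subunit (0.36 ± 0.12, edgeR adjusted p = 0.0494), called in 6 of the 24 fits that left out a single library. In Q175_TyrobpKO against TyrobpKO its relative Asxl1 rose (0.16 ± 0.047, edgeR adjusted p = 0.0396), called in 16 of those fits and not with the cortical marker covariate (0.15, edgeR adjusted p = 0.0588). Of 12 tested COMPASS genes, which serve H3K4 methylation, none was called in the first comparison and 1 rose in the second (9.63% and 5.86% of all genes were called), Kmt2d (0.31 ± 0.087, edgeR adjusted p = 0.0295), called in 18 of those 24 fits. Paxip1, a COMPASS gene, was not called in Q175 against WT (edgeR adjusted p = 0.0950), but was with the cortical marker covariate (0.15, edgeR adjusted p = 0.0355). No gene of any of these Polycomb lists was called in TyrobpKO against WT or in Q175_TyrobpKO against Q175.

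A last list held 39 loci known as Polycomb targets in other tissues, of which 15 had enough reads to be tested. With the Q175 allele, 5 of these rose where Tyrobp was present and 5 where it was missing (beside 4.15% and 2.78% of all genes), namely Wt1, Onecut1, Pax2, Nkx6-1 and Twist1 in both, and none fell. Genes such as Wt1, Onecut1 and Pax2 passed the filter on reads only through the carriers, so the count is no support for a change of the list. Wt1, a zinc-finger transcription factor of kidney and gonad, had 0.0355 to 0.324 CPM in WT and 3.33 to 7.63 CPM in Q175. It was 0.0714 to 0.392 CPM in TyrobpKO and 3.52 to 6.97 CPM in Q175_TyrobpKO. Onecut1, a homeodomain factor of liver and motor neurons, had 12 reads over the 6 WT libraries and 7 over the 6 TyrobpKO libraries, against 549 in Q175 and 555 in Q175_TyrobpKO. Nkx6-1, a homeodomain factor of pancreas and spinal cord, had 8 reads in WT and 20 in TyrobpKO, against 194 in Q175 and 108 in Q175_TyrobpKO.

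The locus best known as a target of Bmi1, Cdkn2a, which encodes cell-cycle inhibitors, was scarce in all genotypes. The 6 libraries of each genotype held 48 reads of it in WT, 90 in TyrobpKO, 112 with the Q175 allele and 140 with both alleles. In the same order its level was 0.286 ± 0.175, 0.531 ± 0.310, 0.666 ± 0.183 and 0.840 ± 0.383 CPM (SD, n = 6 each). Its log2 change in Q175 against WT was 1.19 ± 0.45 (edgeR adjusted p = 0.0972), and that without Tyrobp was 0.66 ± 0.42 (edgeR adjusted p = 0.435), neither called. Cdkn2a was called in Q175_TyrobpKO against WT (1.53 ± 0.44, edgeR adjusted p = 0.0262) and in the averaged effect computed after seeing the data (0.92 ± 0.31, edgeR adjusted p = 0.0353).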

How the data were processed

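The authors deposited raw read counts per gene, whole numbers not normalized, with gene identifiers, positions and exon lengths. The submitters' processing notes name STAR, featureCounts and DESeq2, without versions, and the human build GRCh38; the table's positions are those of mouse GRCm38, where all 10 subunits have the same coordinates in GENCODE M21. Use of strand in counting is not given in the sources used here. RNA came from frozen striatum, per the labels' protocols.

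Counts were tested with edgeR's quasi-likelihood test (edgeR 4.0.16, R 4.3.3) after TMM normalization and the filterByExpr filter, in a robust fit of all 24 libraries with genotype means and sex as a covariate. Adjustment was by Benjamini-Hochberg over 19667 genes at 0.05. The biological coefficient of variation was 16.2%. Genotype and sex came from the labels, and replicate numbers only name libraries (1 to 3 male, 4 to 6 female). The 60 pairs of libraries of a genotype differed by a mean chi-square per gene of 6.89 to 42.6, so none was a duplicate. DESeq2 1.42.0, limma-voom (limma 3.58.1), other normalization, filter, covariate and sample choices were alternatives. The scripts were tested on simulated data.

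Members, lists and tests were chosen with earlier results of these data known, and the lists came from general knowledge. All 10 subunits were named. From each other Polycomb list the rule took the 3 genes with the lowest p in Q175 against WT, and the 1 with the lowest p in each of 3 other contrasts, plus Kdm6a, Uty, Tyrobp and Htt; other genes were chosen after their values were seen. Promoters are RefSeq's. An item of the Polycomb lists is not reported here.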

Additional observations from a re-analysis of the deposited data

Results flagged for a closer look

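In groups of 6 libraries, 5 of the 48 sets of values examined (10 subunits and 2 ratios in 4 genotypes) had an end library far from the rest, by Dixon's test of the gap to the nearest library over the range. Chance flags about 1 in 20 such groups. Bmi1 in Q175 replicate 5 was 87.3 CPM, with the next library at 75.7 CPM, and without that library the call of Bmi1 was lost. Cbx7 in Q175 replicate 2 was 88.9 CPM, with the next at 72.9 CPM. Eed in Q175_TyrobpKO replicate 3 was 19.0 CPM, with the next at 15.3 CPM. Ring1 in Q175_TyrobpKO replicate 5 was 31.3 CPM, with the next at 25.6 CPM. In the same library the ratio of Rnf2 to Ring1 was 0.668, with the next at 0.892.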

How the results depend on the processing

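The number of the 10 subunits called moved in these cases. For Q175_TyrobpKO against TyrobpKO it was 0 rather than 1 with no filter on low counts. For Q175 against WT it was 0 rather than 1 in a fit of the 12 libraries compared, 2 with cortical markers as a covariate (Ezh2 and Bmi1) and 2 for the effect averaged over Tyrobp genotype (Rnf2 and Bmi1). Both counts were 0 in males alone and in females alone, fits with fewer samples, where Bmi1 had 0.23 in each sex (edgeR adjusted p = 0.132 and 0.356) and Rnf2 had 0.21 and 0.23 (0.369 and 0.326). Leaving out each library in turn gave 0 to 2 calls for Q175 against WT (0 in 4 of 24 fits), 0 to 1 for Q175_TyrobpKO against TyrobpKO (0 in 5 of 24) and 0 for the other 7 contrasts. Under RLE normalization, DESeq2, limma-voom and no sex term the counts were the same. Of 2160 estimates from leaving out a library, 78 changed sign, all of them uncalled. No paired analysis was possible because the labels give no replicate numbers shared between genotypes.

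Estimates that were not called changed sign as follows (log2). Rnf2 in females against males was -0.0034 with RLE, -0.0038 with DESeq2 and -0.0014 with limma-voom. In males alone, Q175 against WT gave -0.0084 for Eed, -0.054 for Jarid2 and -0.0085 for Rbbp4. Q175_TyrobpKO against TyrobpKO gave 0.053 for Ezh2, -0.048 for Rbbp4 and -0.058 for Ring1. TyrobpKO against WT gave 0.0056 for Rbbp4. Q175_TyrobpKO against Q175 gave 0.020 for Ezh1, -0.015 for Ezh2, 0.047 for Eed and -0.023 for Ring1. Q175_TyrobpKO against WT gave 0.039 for Eed, and the interaction gave 0.15 for Jarid2 and -0.0040 for Ring1. In females alone, Q175_TyrobpKO against TyrobpKO gave 0.00022 for Ezh1, -0.070 for Jarid2 and -0.012 for Bmi1. TyrobpKO against WT gave -0.0098 for Ezh1 and 0.030 for Jarid2. Q175_TyrobpKO against WT gave -0.0096 for Ezh1, -0.0012 for Suz12, 0.015 for Rbbp4 and 0.011 for Cbx7. The interaction gave -0.047 for Eed, and Aebp2 in Q175 against WT had 0.0011. With the cortical covariate Jarid2 in Q175_TyrobpKO against TyrobpKO had -0.0071. The cause was not tested. Counts of Cdkn2a and the target loci were low, which limits their precision, and those of Ezh2 and Cbx8 were low to a lesser degree. In Q175 against WT the SE (log2) was 0.45 for Cdkn2a, 0.14 for Cbx8 and 0.11 for Ezh2.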
